A study of Mus musculus with 24 samples.

Results

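The 9 genes described here encode transcription factors that mark position along the gut: Pdx1, Gata4, Gata5, Gata6, Onecut2, Cdx1, Cdx2, Hoxb13 and Hoxd10. They were taken by symbol, 9 of 21441 genes, from tables of poly(A) RNA levels in 3 intestinal regions, the duodenum, ileum and colon, in a study of vitamin D and the intestine. All mice carry the genotype label wild type and the strain label C57BL6J. Mice of the 3xD group, with labelled ages of 10 to 14, received 3 injections of 1,25D3 (calcitriol, the active hormone made from vitamin D) at 1 ng per g body weight, placed 48, 24 and 6 h before the end of the experiment. Mice of the minusD group, with labelled ages of 10 to 13, carry the treatment label none, and the unit of age is not stated for either group. The series' design text calls the minusD mice vitamin D-deficient, without saying how they were made so. In each tissue 2 of 4 labelled 3xD samples and 1 of 4 labelled minusD samples came from females, and the columns of the tables are not tied to sex or age. The values cover 23 libraries: 4 of 3xD and 4 of minusD duodenum, 4 of 3xD and 3 of minusD ileum, and 4 of 3xD and 4 of minusD colon.

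The early gut tube is divided along its length by transcription factors that switch one another on and off, and part of this map persists in the adult epithelium. PDX1 is needed for the pancreas and for the most proximal duodenum, GATA4 keeps the absorptive epithelium of the proximal small intestine distinct from that of the ileum, and CDX2 and CDX1 set intestinal as opposed to gastric character. HOX proteins are used in the order of their genes along the chromosome, so that those at the 5' end of each cluster, HOX13 among them, act in the hindgut.

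Levels are given as FPKM, mapped fragments scaled by transcript length and by library size, so that genes can be compared per length. Libraries are named by their column. The 3xD libraries are 3xD 1, 3xD5711, 3xD5720 and 3xD5734, the minusD libraries are minusD5718, Vehicle 1, Vehicle 2 and Vehicle 3, and values stand in that order, with minusD5718 missing from the ileum. For the genes whose whole reads could be recovered from the FPKM steps, duodenal libraries held 12402661 to 28357171 such reads, ileal libraries 12466239 to 29373481 and colonic libraries 11363555 to 22405487. In each tissue the libraries with serial numbers (3xD 1 and the Vehicle libraries) were deeper than all with 4-digit numbers, and this split almost coincides with treatment. The tissue labels were checked against marker lists. Genes of the proximal intestine, such as Apoa4, summed to 21390 to 33090 FPKM in duodenal, 1941 to 5580 in ileal and 182 to 521 in colonic libraries. Bile acid and other genes of the ileum, such as Fabp6, summed to 3163 to 12270 FPKM in the ileum and to at most 629 in any other library. Colon genes such as Car1 summed to 5126 to 11630 in the colon and to at most 2270 elsewhere. Not every member followed its list. Of the colon list, Ang4 averaged 1112 FPKM in the ileum against 323 in the colon. Slc37a2 averaged 61.3 FPKM in the duodenum against 36.4 in the colon. Of the ileum list, Pyy averaged 44.8 FPKM in the ileum against 127 in the colon. Of the proximal list, Heph averaged 101 FPKM in the duodenum against 104 in the ileum. Slc40a1 averaged 162 FPKM in the duodenum, 26.9 in the ileum and 115 in the colon.

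In the NCBIM37 assembly, to which mm9 corresponds, the gencode vM1 annotation places Pdx1 at chr5:148081535-148089584 on the + strand and Cdx2 close by at chr5:148112381-148118846 on the - strand. Gata4 lies at chr14:63817759-63890529 on the - strand, Gata5 at chr2:180059838-180069404 on the - strand, Hoxb13 at chr11:96055630-96058761 on the + strand and Hoxd10 at chr2:74529147-74533163 on the + strand. Pdx1, Gata5, Gata6 and Hoxd10 overlap other annotated genes, and the sources used here do not say whether reads were assigned by strand, so reads of these overlapping genes may be included.

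Promoter windows from 250 bases before to 50 bases after the start were available for 4 of the 9 genes in RefSeq (GRCm38.p6, another build than the positions above). All 4 are shown, and their levels were high in the duodenum for Pdx1, in the small intestine for Gata5, along the whole intestine for Cdx2 and in the colon for Hoxd10. Each was searched on both strands for the core letters that families of these factors bind: TTTAT for CDX, GATAA for GATA and TAAT for homeodomain proteins. Capitals mark every match.
Pdx1 promoter, chr5:147269847-147270146, + strand, GRCm38.p6: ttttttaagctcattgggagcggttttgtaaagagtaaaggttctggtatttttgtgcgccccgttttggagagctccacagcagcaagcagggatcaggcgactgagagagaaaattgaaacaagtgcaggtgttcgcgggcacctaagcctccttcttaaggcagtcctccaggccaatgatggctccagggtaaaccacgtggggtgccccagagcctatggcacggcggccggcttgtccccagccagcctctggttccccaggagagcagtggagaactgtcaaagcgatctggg
Gata5 promoter, chr2:180334630-180334929, - strand, GRCm38.p6: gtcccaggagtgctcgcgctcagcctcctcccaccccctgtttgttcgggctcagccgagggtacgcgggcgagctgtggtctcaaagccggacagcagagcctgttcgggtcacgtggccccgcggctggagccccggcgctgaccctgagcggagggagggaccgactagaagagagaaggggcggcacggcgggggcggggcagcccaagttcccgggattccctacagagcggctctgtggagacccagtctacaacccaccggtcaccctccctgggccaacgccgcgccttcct
Cdx2 promoter, chr5:147307200-147307499, - strand, GRCm38.p6: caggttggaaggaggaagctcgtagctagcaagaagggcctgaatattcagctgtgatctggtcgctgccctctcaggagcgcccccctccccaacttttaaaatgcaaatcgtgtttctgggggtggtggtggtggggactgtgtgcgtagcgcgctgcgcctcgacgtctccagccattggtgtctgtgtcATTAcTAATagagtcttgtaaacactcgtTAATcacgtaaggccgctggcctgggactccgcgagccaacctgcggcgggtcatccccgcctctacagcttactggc
Hoxd10 promoter, chr2:74691641-74691940, + strand, GRCm38.p6: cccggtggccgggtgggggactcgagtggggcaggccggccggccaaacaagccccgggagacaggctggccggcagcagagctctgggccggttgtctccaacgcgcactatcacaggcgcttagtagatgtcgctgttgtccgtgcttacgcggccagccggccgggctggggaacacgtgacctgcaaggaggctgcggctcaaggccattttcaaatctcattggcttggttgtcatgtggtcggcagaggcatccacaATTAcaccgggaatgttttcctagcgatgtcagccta
Neither TTTAT nor GATAA matched in any of these 4 windows, whereas 40.0% and 25.4% of the 32851 promoters of the same length held TTTAT and GATAA in that order. TAAT matched 3 times in the Cdx2 window and 1 time in that of Hoxd10, and 58.0% of all promoters held it. The GC content of the windows was 55.3% for Pdx1, 69.7% for Gata5, 57.3% for Cdx2 and 62.7% for Hoxd10, against a median of 52.7% over all promoters. A match is a description of letters, and its absence says only that they are missing from this window.

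Pdx1 and Onecut2 were expressed in the duodenum and stayed under 1 FPKM in every library of the ileum and colon. Gata4 and Gata6 were highest in the duodenum, lower in the ileum and lowest in the colon, and Gata5 was high in both small intestinal regions and near 1 FPKM in the colon. Cdx1 was highest in the colon, while the levels of Cdx2 overlapped in all 3 regions. Hoxb13 and Hoxd10 were found in the colon and at traces elsewhere.

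**Figure D1:**
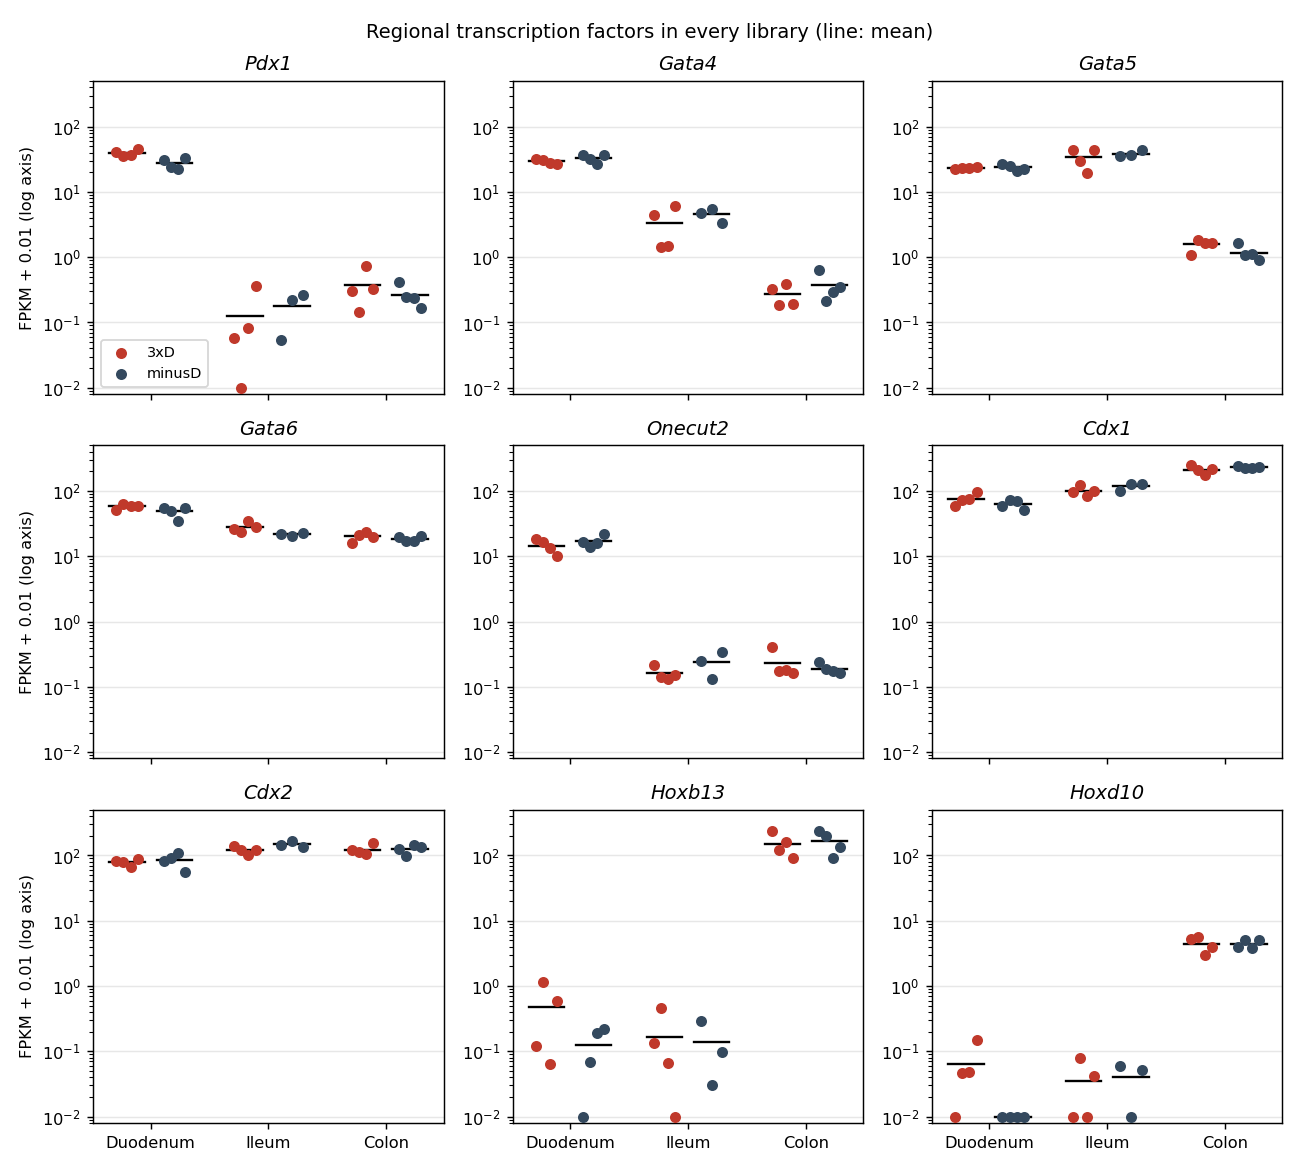
FPKM plus 0.01 of each gene on a log axis in every library of the duodenum, ileum and colon, with 3xD libraries left of minusD libraries and a line at each group mean. Pdx1 and Onecut2 stand at 10.0 FPKM or more in the duodenum only, and Hoxb13 and Hoxd10 are high in the colon only. The treatment groups overlap within each region except for Pdx1 in the duodenum and Gata6 in the ileum.

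Regions were compared after the libraries had been put on a common scale by median-ratio factors, because each tissue's table had been normalised apart. The scaling shifted every gene by 0.18 on the log2 scale for the duodenum against the ileum, 0.28 for the ileum against the colon and 0.46 for the duodenum against the colon, and the differences below are relative to that. Differences and their standard errors come from limma on log2(FPKM + 1), which understates the change of low genes. Each averages over treatments. Of the 13390 genes tested, 37.7% differed between duodenum and ileum, 43% between ileum and colon and 60.1% between duodenum and colon at an adjusted p under 0.05, so a called difference between regions is common in these data. By direction, 19.7% were higher and 18% lower in the duodenum than in the ileum, 21.2% higher and 21.9% lower in the ileum than in the colon, and 29.6% higher and 30.5% lower in the duodenum than in the colon. Libraries of the 2 regions did not overlap at all on the common scale for 4 of the 9 genes between duodenum and ileum, 6 between ileum and colon and 8 between duodenum and colon, against 13.4%, 17.4% and 27.8% of all genes tested. All 9 genes passed the filter of 1 FPKM in 3 libraries, but Pdx1, Onecut2, Hoxb13 and Hoxd10 passed it through their high region alone. A difference from the other regions was then given by the filter, so their levels are described with no test and their part in the counts above supports nothing. The same holds for genes of the wider lists that passed through 1 region. Because RNA came from whole samples, fewer cells of a type and less RNA per cell cannot be told apart in any of these comparisons.

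Pdx1, the homeodomain factor of pancreas and proximal duodenum, had 40.6, 35.1, 36.6 and 45.5 FPKM in 3xD duodenum, against 32.6, 30.9, 24.4 and 22.4 FPKM in minusD duodenum. In the ileum it reached at most 0.346 FPKM, with 49 reads over 7 libraries, and in the colon at most 0.727 FPKM, with 103 reads over 8 libraries. Every duodenal library was thus well above every other library. On the common scale the duodenal mean was 272 times that of the ileum and 149 times that of the colon.

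Onecut2, a CUT-homeodomain factor related to the liver factor HNF6, followed the same pattern at a lower level. It had 18.4, 16.5, 13.2 and 10.0 FPKM in 3xD duodenum, against 22.1, 16.4, 13.7 and 16.1 FPKM in minusD duodenum. Its ileal values ran from 0.12 to 0.337 FPKM and its colonic values from 0.151 to 0.397 FPKM, so that the ileum and colon overlapped and lay apart from the duodenum. On the common scale the duodenum averaged 18.2 FPKM, the ileum 0.190 and the colon 0.170. The other members of its family were low in every region, with means of 0.0275 FPKM for Onecut1 and 0.565 FPKM for Onecut3 in the duodenum.

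The 3 GATA factors, zinc finger proteins of the gut endoderm, each had a profile of its own. Gata4 had 32.4, 30.9, 27.5 and 26.5 FPKM in 3xD duodenum, against 36.5, 36.6, 31.7 and 26.8 FPKM in minusD duodenum. In the ileum it had 4.35, 1.44, 1.49 and 6.00 FPKM in 3xD libraries, against 4.80, 5.44 and 3.29 FPKM in minusD libraries, and in the colon it stayed at or under 0.629 FPKM. No library of one region overlapped with another region. The step was 2.98 ± 0.18 (SE) on the log2 scale for the duodenum against the ileum (limma, adjusted p = 1.53e-10) and 1.89 ± 0.18 for the ileum against the colon (adjusted p = 3.76e-08).

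Ileal Gata4 was the most uneven of the expressed values, with a coefficient of variation of 47.6% against a median of 19.8% over all expressed genes of the ileum. Its lowest libraries, 3xD5711 and 3xD5720, were also set apart by regional markers. The summed proximal genes were lowest in 3xD5711, at 1941 FPKM, but highest in 3xD5720, at 5580 FPKM. Summed ileal genes reached only 3163 FPKM in 3xD5720, where Gata5 was lowest too, at 19.5 FPKM, and 10560 FPKM in 3xD5711, within the range of the other libraries. The part of the sampled position in these values was not tested.

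Gata5 had 22.5, 23.2, 23.6 and 24.3 FPKM in 3xD duodenum, against 22.7, 26.3, 25.2 and 21.0 FPKM in minusD duodenum, the tightest of the 9 genes with a coefficient of variation of 7.06% over the 8 libraries. Ileal values were 43.6, 30.2, 19.5 and 43.5 FPKM in 3xD libraries, against 35.5, 36.4 and 44.0 FPKM in minusD libraries, and overlapped those of the duodenum. In the colon it had 1.08, 1.82, 1.66 and 1.66 FPKM in 3xD libraries, against 0.881, 1.63, 1.07 and 1.10 FPKM in minusD libraries. The duodenum was lower than the ileum by a log2 difference of -0.39 ± 0.13 (limma, adjusted p = 0.0262), but its adjusted p was 0.0768, 0.0867, 0.0572 and 0.117 without the libraries numbered 3xD 1, 3xD5734, Vehicle 2 or Vehicle 3, 0.0508 with a pseudocount of 0.1, 0.0738 in minusD libraries only and 0.271 in 3xD libraries only. The ileum was above the colon by 4.12 ± 0.13 (adjusted p = 1.3e-15) and the duodenum above the colon by 3.73 ± 0.13 (adjusted p = 1.39e-15).

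Gata6 was expressed throughout. It had 50.7, 64.0, 59.9 and 58.6 FPKM in 3xD duodenum, against 55.1, 55.7, 50.3 and 34.7 FPKM in minusD duodenum. Ileal and colonic values were lower, at 20.3 to 34.7 FPKM and 15.8 to 24.0 FPKM. The log2 difference was 1.25 ± 0.11 for the duodenum against the ileum (limma, adjusted p = 1.55e-08) and 0.61 ± 0.11 for the ileum against the colon (adjusted p = 9.96e-05). On the common scale the 3 regions did not overlap, whereas the deposited values of ileum and colon did. Since all 3 are measured in the same libraries, their ratio needs no scaling between tables. Gata4 stood at 0.452 to 0.771 of Gata6 in duodenal, 0.0429 to 0.268 in ileal and 0.00811 to 0.0322 in colonic libraries. Gata5 stood at 0.362 to 0.606 of Gata6 in duodenal, 0.563 to 1.93 in ileal and 0.0437 to 0.0856 in colonic libraries.

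The caudal homeodomain genes were high in all 23 libraries. Cdx1 had 59.1, 73.4, 75.4 and 96.7 FPKM in 3xD duodenum, against 50.9, 59.0, 72.7 and 71.4 FPKM in minusD duodenum. Ileal Cdx1 ran from 84.7 to 129 FPKM and colonic Cdx1 from 173 to 254 FPKM, so that the colon lay above every library of the other regions while the duodenum and ileum overlapped. Limma gave -0.48 ± 0.11 for the duodenum against the ileum (adjusted p = 0.00223), -0.74 ± 0.11 for the ileum against the colon (adjusted p = 1.91e-05) and -1.22 ± 0.11 for the duodenum against the colon (adjusted p = 5.67e-09), all on the log2 scale.

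Cdx2 had 83.5, 79.5, 66.1 and 89.1 FPKM in 3xD duodenum, against 56.6, 83.3, 90.9 and 109.6 FPKM in minusD duodenum. In the ileum it had 141, 124, 101 and 123 FPKM in 3xD libraries, against 146, 167 and 136 FPKM in minusD libraries, and in the colon it ran from 96.9 to 154 FPKM. All 3 regions overlapped on either scale. On the common scale the duodenum was lower than the ileum by -0.54 ± 0.13 (limma, adjusted p = 0.00228), the ileum higher than the colon by 0.41 ± 0.13 (adjusted p = 0.0146), and the duodenum against the colon gave -0.14 (95% interval -0.40 to 0.12, adjusted p = 0.353). Both comparisons with the colon depended on the scaling. The call for the ileum against the colon also ended without the libraries numbered 3xD5711 (0.38, adjusted p = 0.0519) or Vehicle 2 (0.31, adjusted p = 0.107). With values as deposited, the ileum against the colon gave 0.13 (adjusted p = 0.40) and the duodenum against the colon -0.59 (adjusted p = 0.000241). The ratio within libraries, which needs no scaling, put Cdx1 at 0.652 to 1.14 of Cdx2 in duodenal, 0.691 to 1.00 in ileal and 1.41 to 2.33 in colonic libraries, with no overlap between the colon and the others.

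Hoxb13, the gene at the 5' end of the Hoxb cluster, had 236, 122, 159 and 91.8 FPKM in 3xD colon, against 134, 239, 199 and 90.8 FPKM in minusD colon. Among the 9 genes its colonic mean, 159 FPKM, came after that of Cdx1, and its spread in the colon was wide, with a coefficient of variation of 37.6% against a median of 19.8% over all expressed genes of the colon. Ileal libraries held 0 to 9 of its reads and duodenal libraries 0 to 22, at most 0.445 and 1.14 FPKM. The colonic mean was 908 times that of the ileum and 394 times that of the duodenum on the common scale. The highest small intestinal values came from duodenal 3xD5711 and 3xD5734, at 1.14 and 0.587 FPKM. These were also the duodenal libraries with the most RNA of the colon gene Car1, 58.4 and 21.5 FPKM, and of the ileal gene Fabp6, 281 and 89.4 FPKM, and the part of RNA from more distal gut in them was not tested.

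Hoxd10 was the lowest of the 9 genes in its own region. It had 5.20, 5.55, 3.00 and 3.89 FPKM in 3xD colon, against 5.10, 3.95, 5.07 and 3.76 FPKM in minusD colon. All ileal libraries together held 7 of its reads and all duodenal libraries 6, with none in minusD duodenum. On the common scale it averaged 0.0308 FPKM in the duodenum, 0.0280 in the ileum and 3.73 in the colon.

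**Figure D2:**
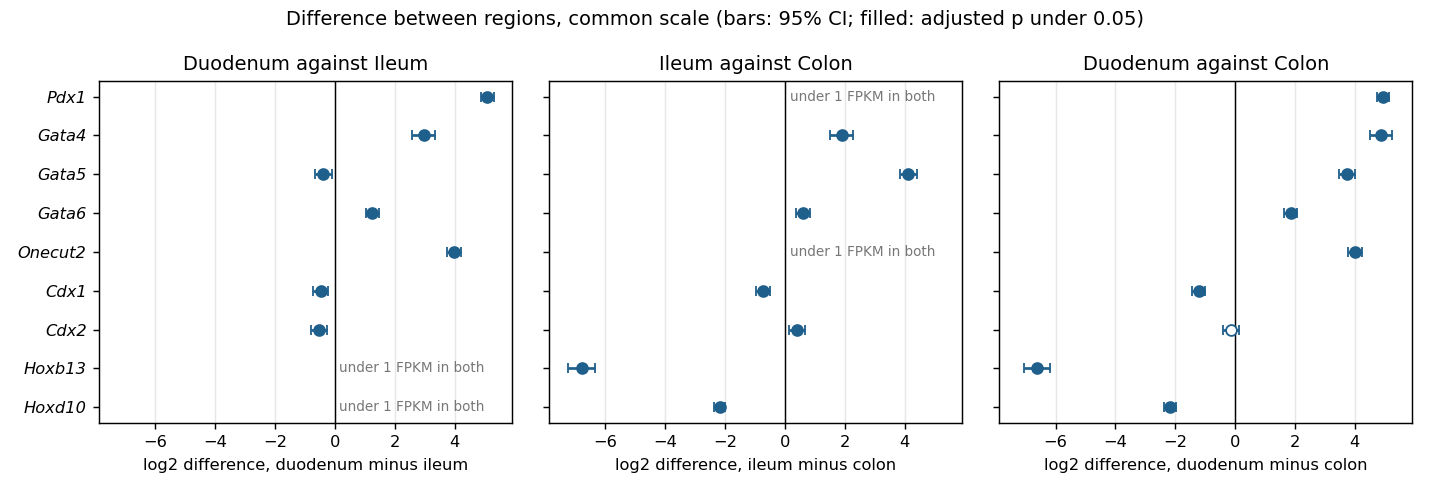
Log2 differences between regions on the common scale for each gene, with 95% confidence intervals from limma, for the duodenum against the ileum, the ileum against the colon and the duodenum against the colon. Filled points have an adjusted p under 0.05. Cdx2 in the duodenum against the colon, at -0.14, is the open point. Pdx1, Onecut2, Hoxb13 and Hoxd10 passed the filter through 1 region, so their filled points are no test, and genes under 1 FPKM on average in both regions are left out.

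Hoxb13 and Hoxd10 belong to clusters whose other genes were also measured. The 16 Hox genes of paralog groups 9 to 13 summed to mean levels of 1.41 FPKM in the duodenum, 10.9 in the ileum and 287 in the colon. Of these 16, 11 passed the filter, and apart from Hoxb9 they did so through colonic libraries alone, so that lower levels in the small intestine were given by the filter. Most of the ileal sum was Hoxb9, with mean levels of 0.221 FPKM in the duodenum, 9.24 in the ileum and 42.4 in the colon. Hoxa10 averaged 0.258 FPKM in the duodenum, 0.0573 in the ileum and 24.0 in the colon, and Hoxa11 followed with 0.0264, 0.0142 and 10.5 FPKM in the same order. In a list of 37 Hox genes without Hoxb13 and Hoxd10, 28 passed the filter, of which 2 were higher and 12 lower in the duodenum than in the ileum, 3 higher and 22 lower in the ileum than in the colon, and 1 higher and 23 lower in the duodenum than in the colon. The medians of the log2 differences were -0.24, -1.01 and -1.89 in these comparisons, against -0.02, -0.02 and -0.01 over all genes tested. Many of the 28 passed the filter through the colon or the ileum alone. These counts and medians were therefore in part given by the filter and are no test of a shift. Genes of the smooth muscle and fibroblast list, whose cells also express Hox genes, were higher distally as well. All 12 were called lower in the duodenum than in the ileum, against 18% of all genes tested. Only 7 of the 12 were called lower in the ileum than in the colon, against 21.9%. The summed level was 208 to 461 FPKM in duodenal, 854 to 1153 in ileal and 1054 to 4118 in colonic libraries, so the ileum and colon overlapped. The part of these cells in the Hox levels was not tested.

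Some Hoxc genes peaked in the ileum instead. Hoxc8 averaged 0.0907 FPKM in the duodenum, 7.17 in the ileum and 0.213 in the colon, and its lowest ileal library, at 4.89 FPKM, exceeded every library of the other regions. Hoxc6 did likewise, with 0.401 FPKM in the duodenum, 4.64 in the ileum and 0.332 in the colon. Both passed the filter through the ileum alone and were named for their small p, so no test is given.

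**Figure D3:**
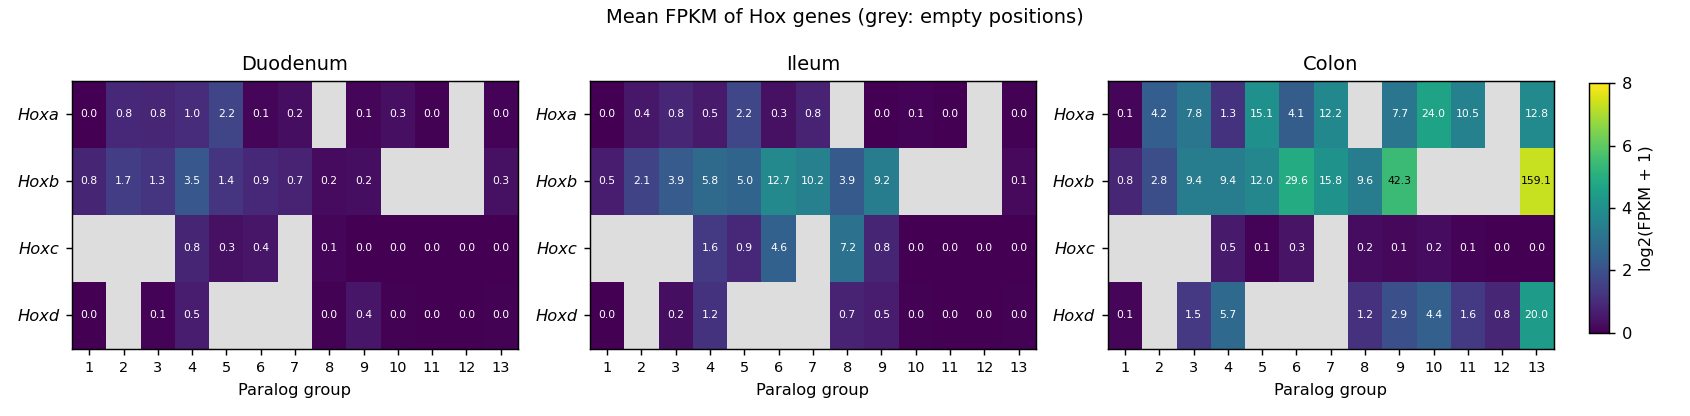
Mean FPKM of each Hox gene over all libraries of the duodenum, ileum and colon, with clusters as rows and paralog groups as columns, coloured on a log2(FPKM + 1) scale. Levels in the colon are highest at Hoxb13, at 159 FPKM, ileal Hoxb levels extend to group 9, and the Hoxc cluster shows its highest levels in the ileum, at groups 6 and 8.

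A list of 28 other regional and intestinal transcription factors gave the surroundings of the 9 genes. Of its 22 members that passed the filter, 4 were higher and 10 lower in the duodenum than in the ileum, 10 higher and 7 lower in the ileum than in the colon, and 7 higher and 11 lower in the duodenum than in the colon, with median log2 differences of -0.29, 0.09 and -0.70 against -0.02, -0.02 and -0.01 over all genes. Of all genes tested, 19.7% were higher and 18% lower, 21.2% and 21.9%, and 29.6% and 30.5%, in the same order. Some members, Foxd2 among them, passed the filter through 1 region, and the list was chosen with earlier results known. These counts and medians are therefore no test. Zfpm1, which encodes the GATA cofactor FOG1, averaged 34.1 FPKM in the duodenum, 6.68 in the ileum and 1.54 in the colon. Creb3l3, a regulator of lipid metabolism, averaged 283 FPKM in the duodenum, 165 in the ileum and 9.81 in the colon, and the leucine zipper factor gene Maf 86.6, 154 and 13.9 FPKM. Osr2, a zinc finger gene, and Nr1h4, which encodes the bile acid receptor FXR, were highest in the ileum, at 67.1 FPKM against 3.99 in the duodenum and 35.5 in the colon for Osr2 and 113 FPKM against 21.6 and 85.6 for Nr1h4. The difference of Nr1h4 between ileum and colon did not pass (limma, 0.63 ± 0.27, adjusted p = 0.0701). The forkhead gene Foxd2 had its highest level in the colon, like Hoxb13, at 26.5 FPKM against 0.254 in the duodenum and 0.0814 in the ileum.

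Genes most like each of the 9 were found by the Pearson correlation of log2(FPKM + 1) over the 23 libraries, which is driven by the 3 regions and given as a description. The closest genes to Pdx1 were Gm766 (0.989), Onecut2 (0.989) and Tmprss15 (0.988), the gene for enteropeptidase, which activates trypsinogen in the duodenum and averaged 47.3 FPKM there against 0.148 in the ileum and 0.0835 in the colon. Gata4 went with Enpp3 (0.992), Zfpm1 (0.990) and Nr1i3 (0.989). Gata5 went with Pdzk1 (0.992), the gene for a scaffold protein of the brush border, and Npc1l1 (0.988), the gene for the cholesterol transporter. Gata6 was closest to Inpp5b (0.977), Dgat2 (0.977) and Cyp3a13 (0.975), Cdx1 to Foxa3 (0.983), Pkdcc (0.963) and Csrp2 (0.958), and Hoxb13 to Hoxa11as (0.998), Tgm3 (0.996) and Cyp2d34 (0.996). Cdx2 had no close partner, its highest correlation being 0.845 with Mvp. Of the 14 genes listed as bound or controlled by CDX2, 4 were higher and 4 lower in the duodenum than in the ileum, 10 higher and 1 lower in the ileum than in the colon, and 8 higher and 2 lower in the duodenum than in the colon. The median log2 differences were 0.06, 0.98 and 0.99, against -0.02, -0.02 and -0.01 over all genes tested. The shares of all genes called are those set beside the other regional factors. This list too was chosen with earlier results known, so its counts are no test. Sis, the gene for sucrase-isomaltase, averaged 1583 FPKM in the duodenum, 1127 in the ileum and 13.8 in the colon, and Vil1, the gene for villin, 787, 901 and 252 FPKM. Cdx2 itself stood at 82.3, 134 and 124 FPKM as deposited, and at 95.2, 136 and 104 FPKM on the common scale.

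The response of the 9 genes to 1,25D3 was then examined within each tissue. None passed an adjusted p of 0.05 in limma: 0 of 7 genes above the filter in the duodenum, 0 of 5 in the ileum and 0 of 6 in the colon. Over all genes, 0.0256% of 11734 passed in the duodenum, 0% of 12149 in the ileum and 0% of 12746 in the colon, so few calls were made in any tissue. The duodenal calls were Cyp24a1, the gene for the enzyme that degrades 1,25D3 and higher in 3xD by 7.91 ± 0.59 on the log2 scale, and Ap1g1 and BC023829, which were lower. At an unadjusted p under 0.05, 1 of the 7 genes stood out in the duodenum, 0 of 5 in the ileum and 0 of 6 in the colon, against 9.4%, 5.84% and 5.85% of all genes tested, and voom on recovered reads gave the same numbers for these genes. Over all genes it tested, voom called 0 in the duodenum, 1 in the ileum and 0 in the colon. The fold changes, on the scale of FPKM + 1, lay between 0.852 and 1.42 in the duodenum, between 0.715 and 1.27 in the ileum and between 0.910 and 1.18 in the colon. A p that misses the threshold does not show that the levels were alike, and the 95% intervals reached as far as 0.84, 1.39 and 0.92 on the log2 scale in the 3 tissues.

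**Figure D4:**
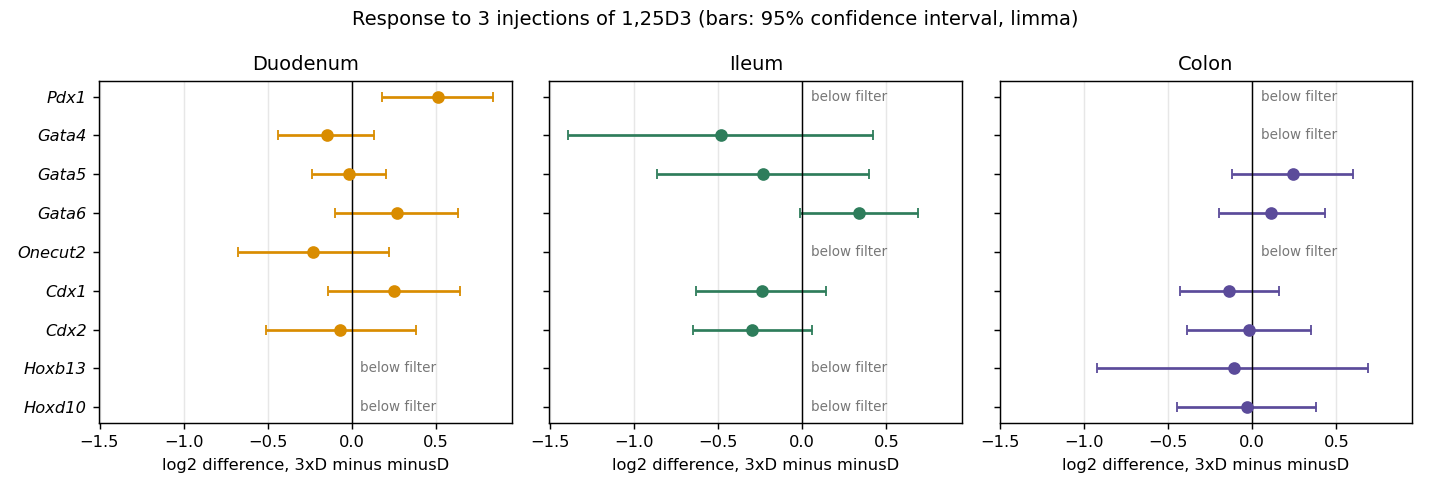
Log2 difference of 3xD minus minusD for each gene that passed the filter in the duodenum, ileum and colon, with 95% confidence intervals from limma. Pdx1 in the duodenum, at 0.51, is the point whose interval lies apart from 0, and the widest interval is that of Gata4 in the ileum, from -1.39 to 0.42.

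Pdx1 was the duodenal gene whose treatment groups did not overlap. Its mean was 39.4 ± 4.64 FPKM in 3xD duodenum and 27.6 ± 4.93 FPKM in minusD duodenum (SD, n = 4 each). The lowest 3xD library, 3xD5711 at 35.1 FPKM, lay above the highest minusD library, minusD5718 at 32.6 FPKM. The log2 difference was 0.51 ± 0.14 (SE, 95% interval 0.18 to 0.84), with a limma p of 0.00658 and an adjusted p of 0.499. An exact two-sided permutation test gave 0.0286, the smallest p that 4 against 4 libraries allow. Groups that do not overlap were found for 4.37% of all genes tested in the duodenum, and in the colon for none of the 9 genes, against 4.54% of all genes tested. Within naming schemes the difference was 0.64 between 3xD 1 and the 3 Vehicle libraries and 0.24 between the 3 numbered 3xD libraries and minusD5718, so 3xD was higher in both. In the other tissues Pdx1 was too low to test.

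Pdx1 is also a gene of the pancreas and the gastric antrum, whose RNA was present in the duodenal samples. Of the 8 stomach genes that passed the filter in the duodenum, 8 had a positive difference, and their list summed to 139 to 9154 FPKM in 3xD duodenum, against 40.5 to 12380 FPKM in minusD duodenum. That sum followed the naming scheme. Libraries carrying 4-digit numbers had 6259 to 12380 FPKM, and those carrying serial numbers had 40.5 to 216 FPKM. Of the 4 duodenal libraries with 4-digit numbers, 3 were 3xD. Positive differences of stomach genes were thus in part given by this split and by the filter, and their count is no test. Gkn1 and Tff1 were listed at 0 in at least 1 serial library, and Atp4b, of the acid-secreting stomach, was at or under 0.0255 FPKM in every duodenal library. Exocrine pancreas genes summed to 883 to 32680 FPKM in 3xD duodenum, against 7840 to 54270 FPKM in minusD duodenum, and the islet list to 23.6 to 152 FPKM, against 16.0 to 83.2 FPKM. Of the genes that passed the filter, the difference was positive for 0 of 10 exocrine pancreas genes and for 5 of 5 islet genes. It was positive for 0 of 12 lymphocyte genes, which summed to 24.5 to 97.8 FPKM in 3xD duodenum, against 78.6 to 134 FPKM in minusD duodenum. By naming scheme the lymphocyte sum was 24.5 to 79.8 FPKM in 4-digit and 78.6 to 134 FPKM in serial libraries. The serial library 3xD 1, at 97.8 FPKM, lay within the range of the Vehicle libraries, so treatment and scheme cannot be told apart here. Ins2, the insulin gene, reached 93.8 FPKM in duodenal 3xD5720, and the islet genes G6pc2 and Mafa stayed at or under 0.275 FPKM in the duodenum. The islet list also summed to 41.3 to 75.4 FPKM in ileal and 69.25 to 214 FPKM in colonic libraries. In colonic 3xD5711 it summed to 162 FPKM with Ins2 at 0, so its sum is no measure of islet RNA alone.

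Pdx1 and Gata4 can be set beside these sums within single libraries. Duodenal 3xD5734 had the least pancreatic RNA of its tissue, 883 FPKM, and the highest Pdx1, 45.5 FPKM. Colonic 3xD5720 had 28770 FPKM of exocrine pancreas genes and 54.0 FPKM of Ins2, set beside 27880 and 24.6 FPKM in duodenal 3xD 1, and its Pdx1 was 0.727 FPKM, against 40.6 FPKM in the duodenal library. Gata4 behaved alike in that pair, at 0.375 FPKM in colonic 3xD5720 and 32.4 FPKM in duodenal 3xD 1. Among colonic libraries Pdx1 was nonetheless highest in 3xD5720. Colonic Vehicle 1 and Vehicle 3, with 5334 and 4477 FPKM of exocrine pancreas genes, had 0.402 and 0.224 FPKM of Pdx1. The remaining colonic libraries, with at most 314 FPKM of those genes, had 0.134 to 0.315 FPKM. As for the stomach, duodenal 3xD 1 and the 3 Vehicle libraries, with at most 216 FPKM of stomach genes, had 40.6, 30.9, 24.4 and 22.4 FPKM of Pdx1. The parts of pancreatic, islet, stomach and lymphocyte RNA in the levels and in the difference between treatments were not tested.

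**Figure D5:**
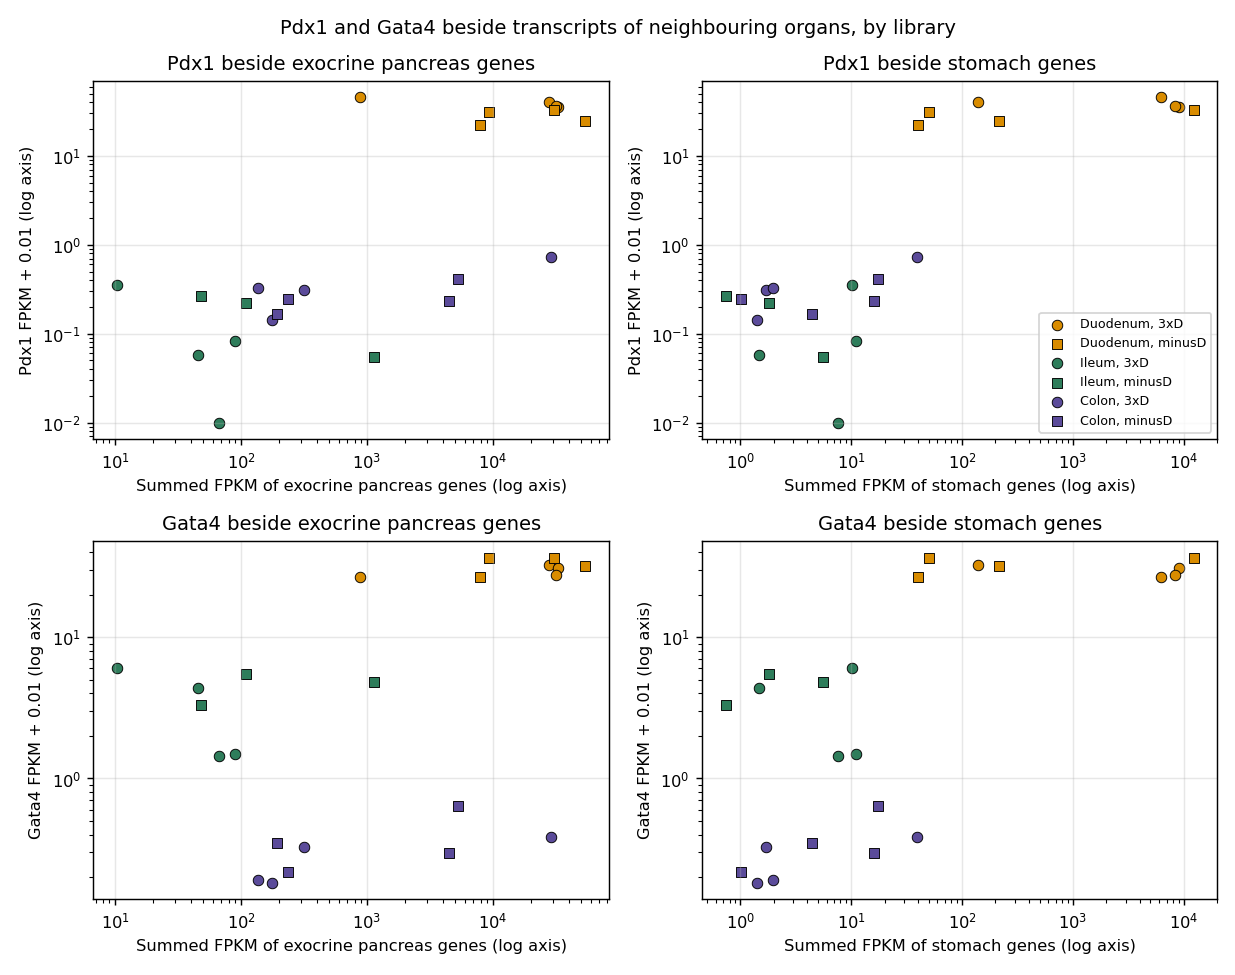
Pdx1 (top) and Gata4 (bottom) plus 0.01 FPKM against the summed FPKM of exocrine pancreas genes (left) and stomach genes (right), all on log axes, with 1 point per library, coloured by tissue and shaped by treatment. The colonic 3xD library with 28770 FPKM of pancreas genes lies far below the duodenal libraries in both genes, at 0.727 FPKM of Pdx1 and 0.375 FPKM of Gata4.

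The other differences between treatments were small or uneven. Gata6 in the ileum had 25.9, 23.5, 34.7 and 28.3 FPKM in 3xD libraries, against 22.2, 20.3 and 22.9 FPKM in minusD libraries, and the groups did not overlap, as was found for 6.56% of all genes tested in the ileum. Its log2 difference was 0.34 (95% interval -0.01 to 0.69), with a limma adjusted p of 0.706 and an exact permutation p of 0.0571, the smallest that 4 against 3 libraries allow. In the duodenum Gata6 gave 0.27 (-0.10 to 0.63) and in the colon 0.11 (-0.20 to 0.43), neither called. Gata4 in the ileum gave -0.48 (-1.39 to 0.42), and it ran from -0.77 to -0.26 when each library was left out in turn. Cdx1 gave 0.25 (-0.14 to 0.64) in the duodenum, -0.24 (-0.63 to 0.14) for ileal and -0.14 (-0.43 to 0.16) for colonic libraries, and the sign of the duodenal value differed between schemes, -0.19 among serial and 0.66 among 4-digit libraries. Cdx2 gave -0.07 (-0.51 to 0.38), -0.30 (-0.65 to 0.06) and -0.02 (-0.39 to 0.35) in the same order. Hoxb13 in the colon gave -0.11 (-0.92 to 0.69) and Hoxd10 -0.03 (-0.45 to 0.38).

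Whether a response differed between tissues was tested as an interaction in the fit over all 23 libraries. None of the 9 genes was called in any pair of tissues, and over all 13390 genes tested only Ap1g1 was called, for the duodenum minus the ileum, which is 0.00747% of them, against 0% for the ileum minus the colon and 0% for the duodenum minus the colon. Pdx1, Onecut2, Hoxb13 and Hoxd10 passed the filter for treatment in 1 tissue or fewer of each pair, so no value is given for them. For Cdx1 the response in the duodenum minus that in the ileum was 0.50 (limma adjusted p = 0.839). In the wider lists, 0 of 19, 0 of 20 and 0 of 22 other regional factors and 0 of 7, 0 of 14 and 0 of 25 other Hox genes were called for 3xD against minusD in the duodenum, ileum and colon.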

How the data were processed

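RNA levels were deposited by the authors as FPKM per gene symbol, 1 table per tissue. Per the labels' protocols, poly(A) RNA was prepared with a NEBNext Ultra II kit and mapped with CLC Genomics Workbench. Per the submitters' processing notes, mm9, DESeq2, DESeq 1.14.0 and kallisto 0.45.0 were also used, in roles that are not stated. The ileum table of 8 libraries equals that of the duodenum in 171528 of 171528 values, so its 8 columns were not used and the 7-library table took its place. Vehicle columns were taken as minusD, because the tables hold no other group.

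Libraries of a tissue were compared with limma 3.58.1 (R 4.3.3, lmFit, eBayes with trend, two-sided) on log2(FPKM + 1), for genes reaching 1 FPKM in 3 or more libraries, with Benjamini-Hochberg adjustment at 0.05. Regions and interactions used 1 fit of 6 group means over 23 libraries after median-ratio scaling (factors of 0.856 to 0.876 for duodenal, 0.971 to 0.993 for ileal and 1.168 to 1.226 for colonic libraries). Region values are given where the mean was at least 1 FPKM in a tissue. Exact permutation tests used every split. The scripts were tested on simulated data. Whole reads were recovered from the FPKM steps, within 0.0001, for 83.2% of 17694 genes and kept for 76.6%. They include all 9 genes.

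Labelled ages and sexes differ within each group, so its samples came from more than 1 mouse. Nothing says that each library came from a separate mouse, so p-values measure the spread between these samples, which may be technical in part. Numbers in the column names were checked for pairing: deviations from group means correlated by more than 0.1 in 7 of 7 pairs of duodenum and ileum, 6 of 7 of ileum and colon and 7 of 8 of duodenum and colon. Pairs of unlike number were not compared, and most groups mix the naming schemes, so these correlations cannot show pairing. The labels do not say what the numbers mark. The genes named were the 9, the 3 most like each of them, and, of the lists, those past the threshold for treatment, the 3 smallest p per region comparison among transcription factors and Hox genes, and the 2 highest of each other list, and 1 of the genes most like the 9 is not reported here. Onecut1, Onecut3, Gkn1, Atp4b, G6pc2, Mafa, Slc37a2, Pyy, Heph, Slc40a1 and the genes called outside the lists were added after their values were seen. The 9 genes and the lists were chosen with earlier results of these data known. Alternatives covered the pseudocount (0.1, 0.5), the filter, the scaling, voom, the naming scheme, each library left out, the 7-library tables and subsets of libraries.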

Additional observations from a re-analysis of the deposited data

How the results depend on the processing

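Gata4 and Gata6 kept their direction and call between regions under every alternative run. For Pdx1, Onecut2, Hoxb13 and Hoxd10 the filter gives the direction. Gata5 and Cdx1 were called in every setting run for their comparisons with the colon. In 3xD libraries only, the duodenum against the ileum was not called for Cdx1 (-0.23, adjusted p = 0.294) or Cdx2 (-0.42, adjusted p = 0.0802), and in serial-numbered libraries only not for Cdx2 (-0.53, adjusted p = 0.0576). For the ileum against the colon, Cdx2 was not called after quantile normalisation (0.19, adjusted p = 0.239) or in 3xD libraries only (0.26, adjusted p = 0.288), and quantile normalisation called it in the duodenum against the colon (-0.58, adjusted p = 0.000301), where serial-numbered libraries only gave 0.01. The number of genes called between duodenum and ileum, 5050, was 2961 in minusD libraries only and 2333 in serial-numbered libraries only.

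With the replicate block, taking the library number as a block, 5924, 6585 and 8848 genes were called for the duodenum against the ileum, the ileum against the colon and the duodenum against the colon, and 0 in place of 1 for the response in the duodenum minus the ileum. The block changed no call of the 9 genes.

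For 3xD against minusD no alternative called any of the 9 genes. Values that changed sign were all small: with the naming scheme as covariate, Cdx2 in the duodenum gave 0.14, Gata5 in the ileum 0.18, and in the colon Gata6 gave -0.04 and Hoxb13 0.19. The ileal value rests on 3xD 1 against the 3 Vehicle libraries, since no minusD library with a 4-digit number was available there. In the 7-library table of the colon Cdx2 gave 0.03 and Hoxd10 0.02, and quantile normalisation gave 0.02 for Hoxd10. With each library left out in turn, Gata5 in the duodenum ran from -0.07 to 0.03, Cdx2 in the duodenum from -0.25 to 0.07, Gata5 in the ileum from -0.37 to 0.00, and in the colon Cdx2 from -0.14 to 0.05, Hoxb13 from -0.37 to 0.10 and Hoxd10 from -0.13 to 0.10. Pdx1 in the duodenum ran from 0.42 to 0.59, with adjusted p from 0.18 to 0.906. The 3 duodenal genes called became 1 with a pseudocount of 0.1, a mean filter, quantile normalisation or the naming scheme as covariate, 0 with voom, and 1 to 4 with a library left out. In the ileum 1 gene was called with no filter and with voom, and in the colon 2 with the naming scheme as covariate and 0 to 3 with a library left out. For responses, the duodenum minus the ileum gave 0 with FPKM as deposited and 0 to 1 with a library left out, the ileum minus the colon 0 to 1 with a library left out, and the duodenum minus the colon 1 with a pseudocount of 0.1. The causes were not tested. Pdx1, Onecut2, Hoxb13 and Hoxd10 stayed below the filter outside their high region, and treatment was not tested for them there.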

Other observations

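Other intestinal factors, chosen here after their values were seen, showed regional levels of their own. Hnf4g, which encodes a nuclear receptor of the enterocyte, averaged 161 FPKM in the duodenum, 122 in the ileum and 13.2 in the colon, whereas its relative Hnf4a averaged 105, 178 and 147 FPKM. Foxa1, a forkhead gene, averaged 3.97, 9.14 and 33.4 FPKM in the same order, and Klf4, a gene of differentiating epithelium, 115, 127 and 273 FPKM. The ratio of Hoxb13 to Hoxd13 within colonic libraries ran from 4.09 to 11.4, and Hoxd13 was lowest in the library Vehicle 3, at 7.97 FPKM, where Hoxb13 was lowest too, at 90.8 FPKM.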
